A study of Bos taurus with 18 samples.

Results

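Transcripts of proteins known from sperm and spermatids were examined in bovine blastocysts. They were the protamines PRM1 and PRM2, the transition proteins TNP1 and TNP2, and the fibrous sheath anchors AKAP3 and AKAP4. The others were the outer dense fibre proteins ODF1 and ODF2, the lactate dehydrogenase subunit LDHC and the sperm autoantigen SPA17. The members were all probe sets to which the array's platform annotation assigns 1 of these 10 symbols and no other. Each gene had 1 probe set, so that 10 of 24016 probe sets were members. The genes were chosen by symbol, with their differences between females and males in an earlier look at these data known, in particular the high values of PRM1 and TNP1 in females. Their sex differences are therefore described and not tested.

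RNA was measured on 18 Affymetrix bovine arrays, each loaded with pooled RNA of 60 blastocysts of a single sex sired by a single bull. The groups were female and male embryos of mixed breed from bulls 1, 2 and 3, produced in vitro with sex-sorted semen and frozen 7 days after insemination, with 3 arrays in each of the 6 groups. All values are log2 expression values as deposited, and differences are female minus male on that scale. Whether pools of 1 group stem from different runs of in vitro fertilisation is not stated in the labels, so that intervals and p-values cover the spread among these pools and no more. Each bull is a single sire.

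Array medians lay between 5.33 and 5.49, and precision is limited by how many arrays there are. On 4 arrays (female bull 1 replicate 3, male bull 1 replicate 2, male bull 2 replicate 1 and male bull 3 replicate 3) the values scattered widely around the median array, with an interquartile range over 0.25. Of 14 blastocyst markers 10 were measured and none was near background. The brightest over all arrays were the trophectoderm keratin KRT18 at 14.04, the endoderm factor GATA6 at 12.39 and the pluripotency factor POU5F1 at 11.93. The dimmest of the 10 was the keratin KRT8 at 5.77.

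In the spermatid, the haploid cell that becomes the sperm, histones are replaced first by transition proteins and then by protamines, small arginine-rich proteins that pack the DNA tightly. The sperm tail carries further structures along its axoneme, the outer dense fibres and the fibrous sheath, and the sheath anchors protein kinase A and glycolytic enzymes. Most of these genes are transcribed in the testis almost exclusively. ODF2 is an exception, being known in human and mouse as a part of the centriole in many cell types, and SPA17 is also found in ciliated cells.

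The deposited values carry no detection call, so a background level was set from 143 probe sets of 82 tissue-restricted genes of eye, muscle, pituitary, pancreas and other organs. A probe set was called near background if its mean over all arrays did not exceed the 75th percentile of theirs, 4.70. By this measure 6 members were near background: PRM2, TNP2, AKAP3, AKAP4, ODF1 and LDHC. The other 4 were PRM1, TNP1, ODF2 and SPA17. At the 90th percentile, 6.74, PRM1 and TNP1 would join the 6, leaving ODF2 and SPA17 above. Probe sets differ in how strongly they bind, and no order of abundance between genes is read from these levels.

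**Figure D1:**
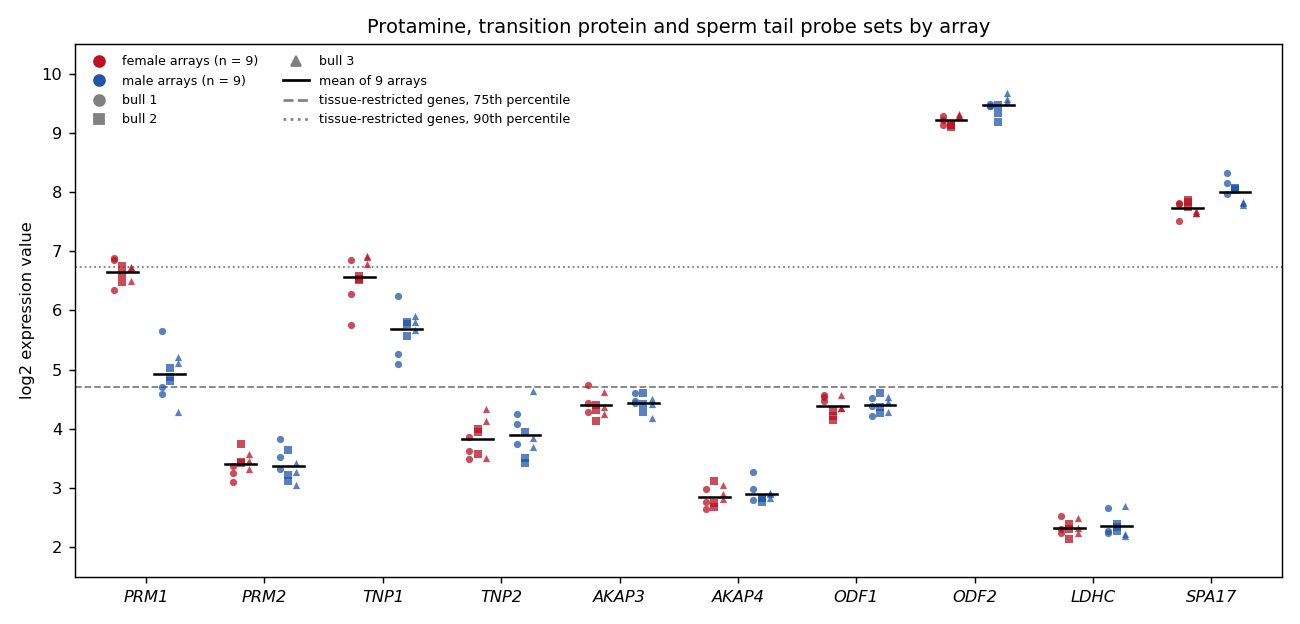
Log2 expression value (vertical axis) of each of the 10 probe sets on every array, with females in red left of males in blue, marker shapes for the bulls and black bars for the mean of 9 arrays. The dashed and dotted lines are the 75th and 90th percentiles of the tissue-restricted genes, 4.70 and 6.74; PRM1 is the only member whose female and male arrays do not overlap.

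PRM1 encodes protamine 1, the main protamine of bull sperm. Its probe set stood at 6.86, 6.35 and 6.89 in females of bull 1, at 6.49, 6.62 and 6.75 in females of bull 2 and at 6.71, 6.73 and 6.49 in females of bull 3. In males it stood at 5.65, 4.71 and 4.59 for bull 1, at 5.02, 4.82 and 4.87 for bull 2 and at 5.12, 4.29 and 5.22 for bull 3. All 9 female arrays lay above all 9 male arrays, with 0.70 log2 between the lowest female and the highest male. Such a separation toward females was found for 1.99% of all probe sets. The means were 6.65 ± 0.18 in females and 4.92 ± 0.39 in males (SD, n = 9 each), a difference of 1.73 log2 (95% confidence interval 1.44 to 2.03) or 3.32-fold, with 7 probe sets of the whole array showing a larger difference toward females.

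The PRM1 difference had nearly the same size in all bulls. It was 1.71 log2 in bull 1 (1.20 to 2.22), 1.71 in bull 2 (1.20 to 2.22) and 1.77 in bull 3 (1.26 to 2.28). The female groups stood at 6.70, 6.62 and 6.64 for bulls 1, 2 and 3, and the male groups at 4.99, 4.90 and 4.87. Within neither sex did neighbours in this order differ by more than the spread of their arrays. In males 2 of the 9 arrays fell at or below the near-background level of 4.70 and in females none did. That depends on the level chosen, since at 6.74 PRM1 counted as near background. Its highest female array, at 6.89, also lay below the mean in females of the brightest Y-linked probe set, 6.96. Where a signal approaches background, log2 differences can be understated. In pooled embryos, fewer cells with a transcript and less of it per cell cannot be told apart.

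PRM2, the second protamine, is encoded next to PRM1 and is known to be scarce in bull sperm. Its probe set was near background. Values ran from 3.11 to 3.75 (median 3.42) in females and from 3.06 to 3.83 (median 3.33) in males, and the sexes overlapped over almost the whole range. The difference was 0.03 log2 (-0.15 to 0.21). It was -0.32 in bull 1 and 0.20 in both other bulls.

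TNP1 encodes transition protein 1, which precedes the protamines on spermatid DNA. Its probe set stood at 6.28, 5.75 and 6.85 in females of bull 1, at 6.52, 6.53 and 6.58 in females of bull 2 and at 6.78, 6.91 and 6.91 in females of bull 3. The male arrays had 5.27, 6.25 and 5.10 for bull 1, 5.57, 5.77 and 5.81 for bull 2 and 5.68, 5.91 and 5.81 for bull 3. In bulls 2 and 3 every female array was above every male array, whereas in bull 1 female replicate 2 was below male replicate 2. Of the 9 females, 8 lay above all males. The means were 6.57 ± 0.37 in females and 5.68 ± 0.34 in males (SD, n = 9 each), a difference of 0.88 log2 (0.59 to 1.17) or 1.84-fold, about which the single bulls gave 0.75, 0.83 and 1.07.

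TNP2 encodes transition protein 2, which like PRM2 is encoded close to PRM1. Its probe set was near background, with values from 3.50 to 4.33 (median 3.86) in females and from 3.42 to 4.65 (median 3.84) in males. Females and males overlapped, with a difference of -0.07 log2 (-0.36 to 0.21) that was -0.36, 0.21 and -0.07 in bulls 1, 2 and 3. Thus 1 protamine and 1 transition protein were higher in females, while the other protamine and the other transition protein, both near background, had intervals that spanned 0.

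AKAP3 and AKAP4 anchor protein kinase A in the fibrous sheath of the tail, and AKAP4 is X-linked. AKAP3 ranged from 4.14 to 4.74 (median 4.37) in females and from 4.19 to 4.61 (median 4.43) in males. AKAP4 ranged from 2.65 to 3.12 (median 2.81) in females and from 2.76 to 3.27 (median 2.83) in males. Both were near background and the sexes overlapped in both. The differences were -0.04 log2 (-0.20 to 0.12) for AKAP3 and -0.04 (-0.20 to 0.11) for AKAP4.

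ODF1, a small heat shock domain protein of the outer dense fibres, was also near background. Its probe set ranged from 4.14 to 4.58 (median 4.35) in females and from 4.22 to 4.60 (median 4.38) in males, with a difference of -0.01 log2 (-0.14 to 0.12). ODF2 stood far above the background level. Its probe set stood at 9.29, 9.21 and 9.12 in females of bull 1, at 9.10, 9.13 and 9.14 in females of bull 2 and at 9.32, 9.28 and 9.29 in females of bull 3. Males had 9.45, 9.45 and 9.49 for bull 1, 9.19, 9.48 and 9.33 for bull 2 and 9.58, 9.52 and 9.68 for bull 3. Females lay below males in each bull without overlap, and pooled over bulls 8 of the 9 males lay above all females. The exception was male bull 2 replicate 1 at 9.19, 1 of the 4 arrays of wide spread. It lay below the highest females of bulls 1 and 3. The means were 9.21 ± 0.09 in females and 9.46 ± 0.14 in males (SD, n = 9 each), a difference of -0.25 log2 (-0.36 to -0.15) or 1.19-fold lower in females, and -0.26, -0.21 and -0.29 in bulls 1, 2 and 3.

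LDHC encodes the lactate dehydrogenase subunit of sperm. Its probe set was among the dimmest on the array, with 0.69% of all probe sets at or below its mean. Values ran from 2.14 to 2.53 (median 2.31) in females and from 2.19 to 2.70 (median 2.28) in males, and the difference was -0.03 log2 (-0.20 to 0.14). The somatic subunit genes LDHA and LDHB averaged 11.33 and 12.12 in females and 11.03 and 12.09 in males.

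SPA17 encodes a protein of the fibrous sheath that shares the docking domain of protein kinase A subunits. Its probe set stood at 7.79, 7.51 and 7.81 in females of bull 1, at 7.75, 7.86 and 7.83 in females of bull 2 and at 7.64, 7.69 and 7.64 in females of bull 3. Males had 8.15, 8.32 and 7.97 for bull 1, 8.05, 8.06 and 8.04 for bull 2 and 7.81, 7.83 and 7.79 for bull 3. As with ODF2, females were lower in each bull without overlap, while males of bull 3 lay within the range of the other bulls' females. The means were 7.73 ± 0.11 in females and 8.003 ± 0.17 in males (SD, n = 9 each), a difference of -0.28 log2 (-0.40 to -0.16) or 1.21-fold lower in females. In bulls 1, 2 and 3 it was -0.44, -0.23 and -0.16.

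**Figure D2:**
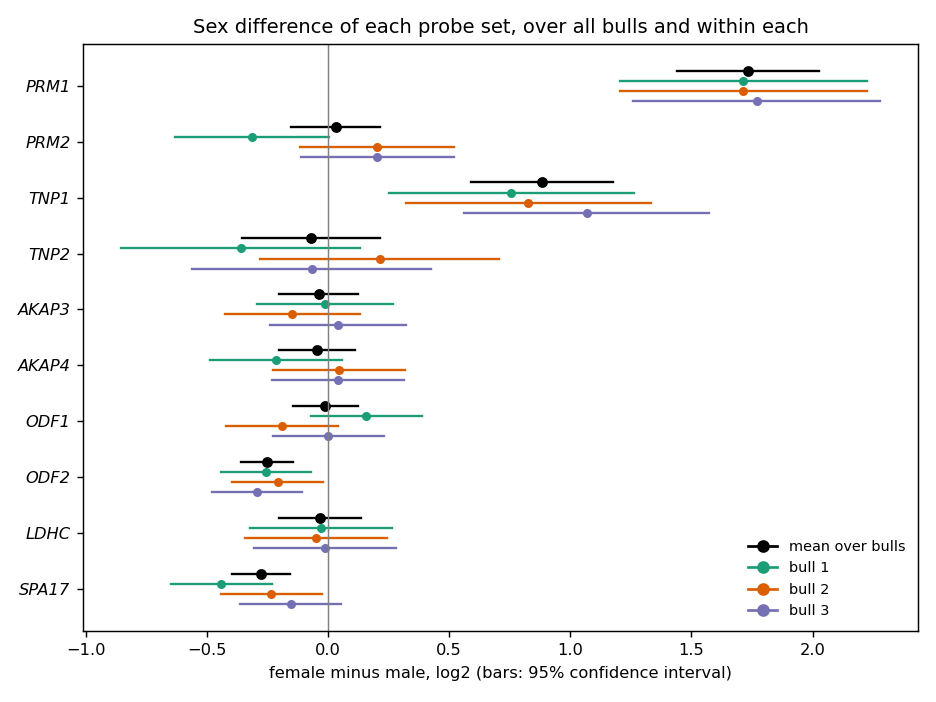
Female minus male difference in log2 (horizontal axis) of each probe set, as the mean over bulls in black and within each bull in colour, with bars for the 95% confidence interval of the fit over all arrays. PRM1 and TNP1 lie right of 0 in every bull, ODF2 and SPA17 left of 0 in every bull, and the other 6 around 0.

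In limma's fit over all probe sets with Benjamini-Hochberg adjustment, 4 of the 10 members were called for sex at an adjusted p under 0.05, PRM1 and TNP1 higher in females and ODF2 and SPA17 higher in males. Over all probe sets 15.6% were called, 8.12% toward females and 7.47% toward males. The share was 5.07% among probe sets near background and 23.1% among the others, and the 4 members called were the 4 above the background level. Since the genes were chosen with this contrast known, nothing is read from these counts. The separation of females from males in each of the 3 bulls, seen for PRM1 in one direction and for ODF2 and SPA17 in the other, occurred in 3.34% of probe sets toward females and 2.51% toward males. Within single bulls, PRM1 was called in all 3, TNP1 in bull 3 and SPA17 in bull 1, against 4.2%, 3.13% and 4.18% of probe sets called in bulls 1, 2 and 3.

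The sex difference of no member was called as unequal across bulls. Limma's interaction test called 0 of the 10 and 0% of all probe sets, and the adjusted p was 1.00 for each member. At an unadjusted p under 0.05 were 2.73% of all probe sets and 1 member, PRM2, whose difference had opposite signs in bull 1 and in the other bulls.

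The differences between bulls were not used in choosing the genes. Limma's F test over the 3 bulls called 0 of the 10 members, against 6.39% of all probe sets. None of the pairwise contrasts called a member either, against 1.52% of probe sets for bull 2 minus bull 1, 3.53% for bull 3 minus bull 1 and 3.74% for bull 3 minus bull 2. At an unadjusted p under 0.05 were 2 members, ODF2 and SPA17, against 24.2% of all probe sets. ODF2 averaged 9.44 ± 0.17 in bull 3 and 9.23 ± 0.15 in bull 2 (SD, n = 6 each), 0.22 log2 apart (limma, adjusted p = 0.0592, and 0.0445 without male bull 1 replicate 2), and SPA17 averaged 7.73 ± 0.09 in bull 3 and 7.93 ± 0.13 in bull 2, -0.20 log2 apart (limma, adjusted p = 0.122). These SDs span both sexes and so include the sex difference. Within groups the SD was 0.08 for ODF2 and 0.10 for SPA17. PRM1 averaged 5.76 in bull 3, 5.76 in bull 2 and 5.84 in bull 1, and no pair of bulls differed by more than 0.09 log2. Embryo production and array scanning may have been batched by bull, which the labels leave unsaid, and bull and batch cannot be told apart.

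For TNP1, as for ODF2, a call between bulls depended on which arrays were used. In females TNP1 averaged 6.87 in bull 3, 6.54 in bull 2 and 6.29 in bull 1, and in males 5.80, 5.72 and 5.54 in the same order. Over both sexes bull 3 was higher than bull 1 by 0.42 log2 (0.06 to 0.77; limma, adjusted p = 0.185). Without the 4 arrays of wide spread this became 0.73 log2 (limma, adjusted p = 0.00264), and bull 2 was then higher than bull 1 by 0.57 log2 (limma, adjusted p = 0.0147). Without male bull 1 replicate 2 alone, bull 3 was higher than bull 1 by 0.59 log2 (limma, adjusted p = 0.0274). The adjusted p of TNP1 in the F test over bulls was 0.256 with all arrays, 0.00259 without the 4 arrays and 0.033 without male bull 1 replicate 2, and it ran from 0.00259 to 0.588 over 30 alternative fits.

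The arrays of bull 1 also carried most of the spread of TNP1. Its SD among 3 arrays was 0.55 in females and 0.62 in males of bull 1, against 0.03 and 0.13 in females and males of bull 2 and 0.08 and 0.12 in those of bull 3. The within-group SD over all arrays was 0.35 for both TNP1 and PRM1, where the median probe set had 0.16. The mean 5′ minus 3′ signal of the control transcripts actin, GAPDH and EF1A, taken as a sign of RNA integrity, moved with TNP1 in bull 1. After subtraction of the group means, the correlation of TNP1 with this index was r = 0.634 and rho = 0.567 over 18 arrays, r = 0.627 without the 2 arrays farthest in the index, and r = 0.115 over the 12 arrays of bulls 2 and 3. For PRM1 it was r = -0.456 and rho = -0.298 over 18 arrays, r = -0.311 without the 2 farthest and r = -0.608 in bulls 2 and 3. The sexes had nearly equal means of this index, -0.35 in females and -0.35 in males. With it as a covariate the sex difference was 0.88 log2 for TNP1 and 1.73 for PRM1. Nothing is read from these values, since a covariate with equal means in both sexes can hardly move a sex difference. Without the 4 arrays of wide spread the differences were 0.89 and 1.73.

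**Figure D3:**
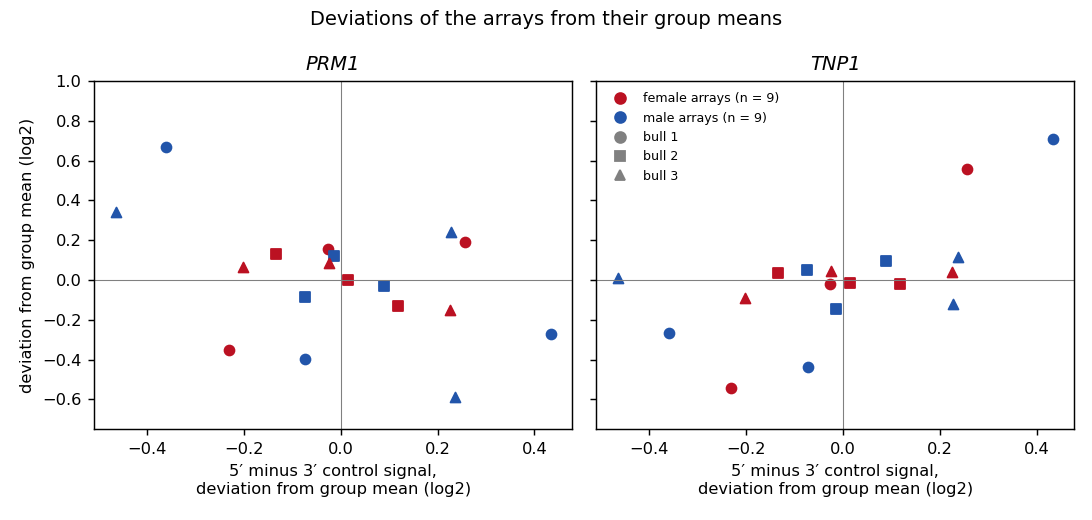
Deviation of PRM1 (left) and TNP1 (right) from the mean of each array's group, in log2 (vertical axis), against the deviation of the 5′ minus 3′ control signal, in log2 (horizontal axis), with females in red, males in blue and marker shapes for the bulls. The large deviations of TNP1, up to 0.71, are all arrays of bull 1 (circles), while those of bulls 2 and 3 stay close to 0.

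PRM1 and TNP1 shared their profile over the arrays with genes of other kinds. Over 18 arrays, and among 13098 named probe sets, PRM1 was most like the tubulin TUBA4A (r = 0.969), the ubiquitin hydrolase UCHL1 (0.965), the secreted protein DKK3 (0.955), the muscle creatine kinase CKM (0.952) and the X-linked BEX4 (0.951). All 5 were higher in females, by 1.04, 1.18, 1.13, 1.42 and 1.59 log2 in this order. TNP1 was most like the troponin TNNI3 (r = 0.924), the X-linked GPKOW (0.920), the cytochrome c haem lyase HCCS (0.915), the protease CTSC (0.908) and TMEM37 (0.901), which were higher in females by 0.96, 0.51, 0.60, 0.42 and 0.65 log2. None of these is a gene of the sperm lists. The 18 arrays fall into 2 sexes, and these r include that difference. TNNI3, at a mean of 8.29, is also 1 of the tissue-restricted genes behind the background level.

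With the group means subtracted, the likeness rests on deviations of single arrays. PRM1 then lay closest to the collagen COL11A1 (r = 0.851), STAM2 (0.807), COQ10A (0.792), the guanylate cyclase GUCY2D (0.784) and the nitric oxide synthase NOS2 (0.781), of which only COQ10A was called for sex. TNP1 lay closest to GGNBP2 (r = 0.980), ANAPC10, a subunit of the anaphase-promoting complex (0.944), COPS5 of the signalosome (0.938), the mitochondrial ribosomal protein MRPS31 (0.937) and the proteasome subunit PSMD1 (0.937), none of which was called for sex. Over the 12 arrays of bulls 2 and 3 alone, the last 5 had r = 0.853, 0.730, 0.513, 0.787 and 0.161 with TNP1.

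None of the measured genes around PRM1 was called higher in females, and PRM2, TNP2 and LITAF among them were near background. Over all genes, each with its brightest probe set, 11.5% were called higher in females and 20.8% in either direction. With so few genes, nothing is read from the counts here. In the assembly ARS-UCD2.0 the order of protein-coding genes is TNP2, PRM3, PRM2, PRM1 and RMI2, and RMI2, a subunit of the BLM helicase complex, is the neighbour on the other side. RMI2 averaged 8.86 ± 0.15 in females and 9.07 ± 0.17 in males (SD, n = 9 each), lower in females by 0.21 log2 (SE 0.06; limma, adjusted p = 0.0261). It lost this call in 6 of 31 alternative fits (adjusted p = 0.0511 to 0.171), among them those without bull 2, without bull 3 and without the 4 arrays of wide spread. Of 8 measured genes of the wider region RMI2 was the only one called. The other 7 were DEXI at 0.16, ZC3H7A at -0.16, TXNDC11 at -0.11, LITAF at -0.11, NUBP1 at -0.04, GSPT1 at -0.03 and RSL1D1 at -0.01 log2.

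Further genes of sperm formation were taken from lists, with the brightest probe set of each gene. Of all 9155 genes so represented, 20.8% were called for sex, 11.5% higher in females and 9.31% higher in males, with a median difference of -0.015 log2. Of 29 genes of spermatid chromatin and its control 8 were measured, of which 3 were called, all higher in females (median 0.189). They were HSPA2, a chaperone of spermatids that belongs to a family of similar genes (0.67 log2), the RNA-binding BOLL (0.37, near background) and TDRD7, a Tudor protein of germ granules (0.29). TDRD7 lost its call without bull 1 or bull 2, and BOLL without bull 3. CFAP20 had 0.20 and did not pass (limma, adjusted p = 0.0589), though it did in 10 of 31 alternative fits (lowest adjusted p = 0.0227). CREM, the transcriptional activator of many spermatid genes in mouse, stood at 6.70 in females and 6.69 in males.

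Of 48 other sperm tail genes 9 were measured, of which 6 were near background, 1 was higher in females and none in males (median -0.001). The gene higher in females was SPAG4, a nuclear envelope protein that binds ODF1 in rat (0.46 log2). CABYR, a calcium-binding protein of the fibrous sheath, had -0.29 and did not pass (limma, adjusted p = 0.0762), though it did in 2 of 31 alternative fits, and CCDC39 and SPAG6 of the axoneme had -0.16 and -0.11 and did not pass either. Of 34 genes of the acrosome and of fertilisation 7 were measured, 5 of them near background (median 0.002). DKKL1, an acrosomal protein, was higher in females (0.36) and the chaperone CLGN higher in males (-0.40). DKKL1 lost its call without bull 2 or bull 3, and CLGN without bull 1 or bull 3. EQTN and the hyaluronidase SPAM1 had -0.14 and -0.09 and did not pass.

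Of 40 genes of the germ line and meiosis 9 were measured, of which 4 were called, all higher in females (median 0.181). SYCP3 and TEX12, both parts of the synaptonemal complex, averaged 9.99 and 10.84 in females and 9.46 and 10.42 in males, 0.52 and 0.42 log2 apart. ASZ1 and MAEL, both proteins of the piRNA pathway, were higher by 0.33 and 0.30. MAEL lost its call in 16 of 31 alternative fits and ASZ1 in 3.

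A list of 34 relatives and partners of AKAP3, AKAP4, LDHC and ODF2 had 17 measured genes, of which 1 was higher in females and 3 in males (median -0.054). LDHA was higher in females (0.30 log2), and PRKACA, a catalytic subunit of protein kinase A (-0.24), the tubulin TUBD1 (-0.22) and FBF1 of the centriole's appendages (-0.19) were higher in males. The calls of LDHA, TUBD1 and FBF1 were lost in 14, 8 and 19 of 31, 31 and 30 alternative fits, and that of PRKACA without bull 2 or bull 3.

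**Figure D4:**
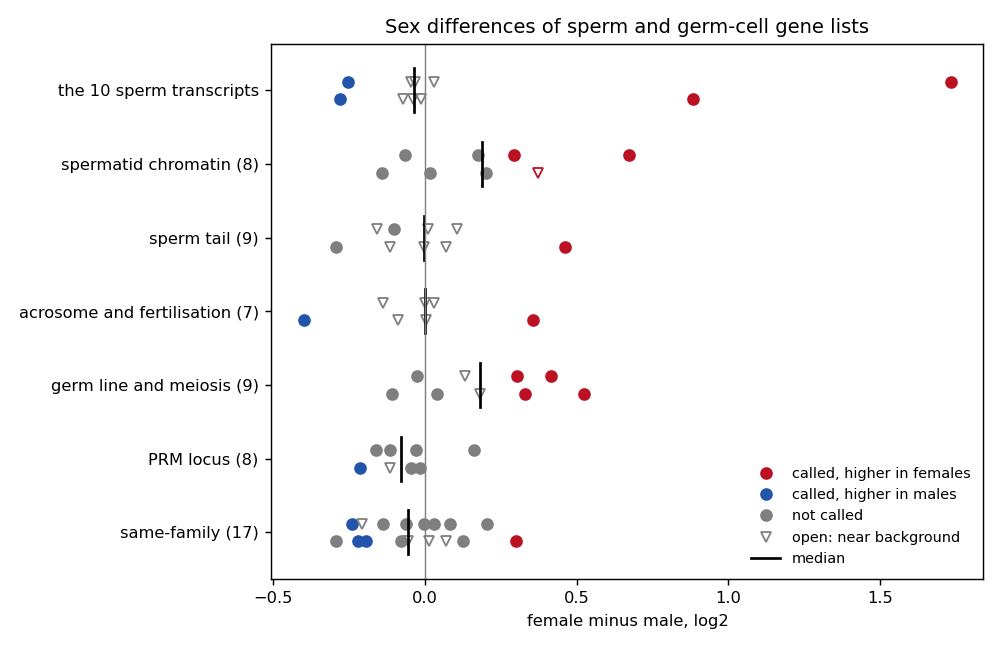
Female minus male difference in log2 (horizontal axis) of each gene in 7 rows, the 10 sperm transcripts on top and the 6 lists below, with the number of measured genes in brackets. Red and blue are genes called higher in females and in males, grey is not called, open triangles are near background and black bars are medians; PRM1 at 1.73 and TNP1 at 0.88 lie farthest right.

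A list of 15 sperm markers, which shares 8 genes with the members, had 11 measured genes. All except PRM1 and TNP1 were near background, and none of these 9 was called. Besides members they were the acrosomal protease ACR, at 3.03 in females and 3.03 in males, the hyaluronidase SPAM1, at 2.73 and 2.82, and the sperm surface protein ADAM2, at 2.60 and 2.60. The mean level of the list on an array ran from 3.80 to 3.996 in females and from 3.52 to 3.84 in males. This mean includes PRM1 and TNP1, which were chosen with their sex difference known, so nothing is read from it. The median sex difference of the 11 genes was -0.011 log2.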

How the data were processed

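Total RNA (50 ng per pool) was amplified and hybridised by the authors, per the labels' protocols. What the authors deposited is 1 log2 value per probe set and array. RMA and Partek 6.4 are named in the submitters' processing notes without their roles, and the range of the values shows the log2 scale. RMA draws arrays to a common distribution, so a shift of all transcripts cannot be seen.

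The members and lists were chosen with earlier results of these data known. Array controls (112) were left out. A model with 6 group means and 12 residual degrees of freedom was fitted (limma 3.58.1, R 4.3.3), and p-values were adjusted by Benjamini-Hochberg over 24016 probe sets. Intervals are 95% limits of that fit. Steps were tested on simulated data. Named were all members, the 5 probe sets most like PRM1 and TNP1 by each of 2 correlations, the 4 genes of smallest p per list and all measured genes of the PRM1 region. CREM, LDHB, ACR, ADAM2, KRT18, KRT8, GATA6 and POU5F1 were added after their values were seen. The same holds for LUM, HAS2, VIM, POSTN, COL3A1, FSHR and PTX3. Gene order came from ARS-UCD2.0. The labels do not say whether sample numbers mark shared runs, and the main fit did not pair arrays by them. Figures were drawn with matplotlib 3.10.9.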

Additional observations from a re-analysis of the deposited data

Results flagged for a closer look

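AKAP4 stood at 3.27 on male bull 1 replicate 2, apart from the other 8 male arrays, of which the highest was 2.99. The array is 1 of the 4 of wide spread, and the probe set is near background. Among 20 sets of 9 arrays this was the only value so far from its group, and chance alone sets apart about 1 in 20.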

How the results depend on the processing

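The sex differences of PRM1, TNP1, ODF2 and SPA17 kept direction and call in all 31 alternative fits. They were 1.56 to 1.84, 0.79 to 1.00, -0.28 to -0.23 and -0.34 to -0.20 log2 in this order. The call of ODF2 was close to the threshold without bull 3 (limma, adjusted p = 0.0494), and SPA17 reached 0.0354 without bull 2. The other 6 members were called in none of the 30 fits that held them. These fits reuse the same arrays, and the genes were chosen with this contrast known, so they are no independent support. The number of members called for sex was 4 throughout, also with the sample number as a replicate block, which changed no member's call. Same-numbered arrays of different groups showed no common deviation (median r = 0.025, -0.023 and -0.035 for numbers 1, 2 and 3), and 2 of 18 arrays lay closest to 1 of their own number. Over all probe sets 3743 were called for sex, 2044 without bull 2 and 2182 without bull 3, fits with fewer arrays, and 3175 to 3983 without single arrays. For the bulls, no member was called with all arrays and 0 to 1 without single arrays. With the brighter 50%, an intensity trend or no moderation 1 was called (ODF2), with array weights 3 (ODF2, SPA17 and TNP1), without bull 1 it was 1 (SPA17) and without the arrays of wide spread 1 (TNP1). The cause was not tested. Taking the lowest 25% of all probe sets as near background gave 3 members in place of 6, and the 90th percentile and the brightest Y-linked probe set in females each gave 8. Low signals limit what can be seen for those 6.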

Other observations

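Markers of other cells that a pool of blastocysts could hold were measured with the same fit. Over all genes 20.8% were called for sex, and with so few genes nothing is read from the counts of these lists. Of 13 cumulus and granulosa markers 12 were measured, 5 of them near background, and 5 were called. TIMP2 (0.70), CYP19A1 (0.56), COL1A1 (0.19) and DCN (0.33 log2) were higher in females, and COL1A2 was higher in males at -0.26 log2. The rest were not called. LUM had 0.325, HAS2 -0.115 and VIM -0.342. The near-background POSTN, COL3A1, FSHR and PTX3 had -0.273, -0.034, 0.001 and -0.044. DCN was near background and close to the threshold (limma, adjusted p = 0.0467). It was named after its value was seen and was not followed through the alternative fits. COL1A1 lost its call in 17 of 31 alternative fits and COL1A2 in 4. Of 7 blood markers 6 were measured, 4 of them near background. HBB (0.81) and HBA (0.26, near background) were higher in females, and CD68 was higher in males at -0.43. HBA lost its call in 20 of 30 alternative fits and HBB in 2 of 31. CD3E, also near background, had 0.12 and did not pass. Of 10 oocyte markers 7 were measured, 4 of them near background. OOEP was higher in females (0.36), while BMP15, ZP3 and the near-background GDF9 had 0.21, 0.10 and 0.08 and did not pass. Among the blastocyst markers IFNT2 and SSLP1 were higher in females, at 0.59 and 0.75, PAG2 was higher in males at -0.68, and SPARC had 0.19 and did not pass. PAG2 lost its call without bull 2 or bull 3, and OOEP without bull 3. The medians of these 4 lists were -0.017, 0.060, 0.098 and 0.017 log2.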
